A study of Mus spretus with 19 samples.

Results

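Oxidative phosphorylation is the last stage of respiration, carried out in the inner mitochondrial membrane. Complex I (NADH dehydrogenase), complex II (succinate dehydrogenase), complex III (the cytochrome bc1 complex) and complex IV (cytochrome c oxidase) pass electrons to oxygen and, except for complex II, pump protons, and complex V (ATP synthase) makes ATP from the proton gradient. Liver depends on this machinery for glucose, urea and lipid synthesis, and most of the subunits are encoded by nuclear genes.

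The genes described here were all those on the array whose symbol begins with Nduf, followed by a, b, c, s or v, with Sdh, followed by a, b, c or d, with Uqcr, with Cox4 to Cox8, or with Atp5, and whose probe was well above background on 3 or more arrays of at least 1 site. In all, 83 symbols on 117 probes had such a name, and 81 of them, on 108 probes, passed the signal rule, among 16346 genes that passed it over the whole array. The 81 members comprised 38 of complex I, 4 of complex II, 7 of complex III, 16 of complex IV and 16 of complex V, grouped by symbol. Of these, 77 are subunits. The other 4 are Ndufaf1 and Ndufa12l, which are assembly factors of complex I, Cox4nb, named for its position beside Cox4i1, and Atp5s, a coupling factor of ATP synthase. Cox4i2 and Cox8c, isoforms of complex IV subunits, were left out because each was well above background on 1 of 19 arrays. Where a gene had several probes, the brightest was used. Of the chosen probes, 16 of the 81 span an intron, and signals of different probes are not compared with each other.

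RNA was taken from the livers of male Algerian mice (Mus spretus) caught at 5 sites in southwestern Spain, with 9 mice pooled into 1 RNA sample at each site. The site labelled unpolluted was the Santa Olalla lagoon (SOL). The 4 labelled polluted were the phosphogypsum stacks (PS) and the lower (DR1), medium (DR4) and upper (DR6) course of the Domingo Rubio stream. Each pool was hybridised in 1 colour to 4 Agilent mouse arrays (3 for DR6), 19 in all. Because every array of a site holds the same pooled RNA, the p-values below measure the spread between arrays and not between mice. Each site also had its own slide and scan, so that site, slide and scan cannot be told apart. The probes were designed for Mus musculus. A level is the log2 signal minus the array's 75th percentile, so a level of 0 is a signal equal to that percentile. Of 12 listed hepatocyte markers 10 were measured, with a mean level of 5.82 to 6.25 over the arrays of all sites. In pools of whole liver, fewer cells of a type and less RNA per cell cannot be told apart.

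An area of low signal on 2 arrays touched several members and is described before the results. On SOL replicate 1, 931 gene spots were more than 2-fold below the median of the other SOL arrays, and 913 of these (98.1%) lay in rows 240 to 300 of the array. On DR1 replicate 4, 436 spots were that low, 370 of them (84.9%) in the same rows. DR1 replicate 2 had 442 such spots, of which 25 lay there, and the other 16 arrays had between 9 and 133. Among the members, 11 have their probe in those rows. Cox6b1, a complex IV subunit, had levels of -0.69, 2.20, 2.09 and 2.17 on the 4 SOL arrays and of 2.01, 2.09, 2.03 and 1.07 on the 4 DR1 arrays. Ndufa12l (0.16 on SOL replicate 1 against 2.85 to 2.98 on the other SOL arrays), Cox6a1 (6.23 against 8.01 to 8.11) and Cox6a2 (0.45 against 1.25 to 1.40) were low on the same array. So was Ndufa11, a complex I subunit, at -1.04 against 0.93 to 1.13. Where the changes of these 5 genes against SOL are described, they are therefore given with those rows of the 2 arrays left out, and are said to be so. Counts, medians, ranges and the F test hold all spots unless said otherwise.

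**Figure D1:**
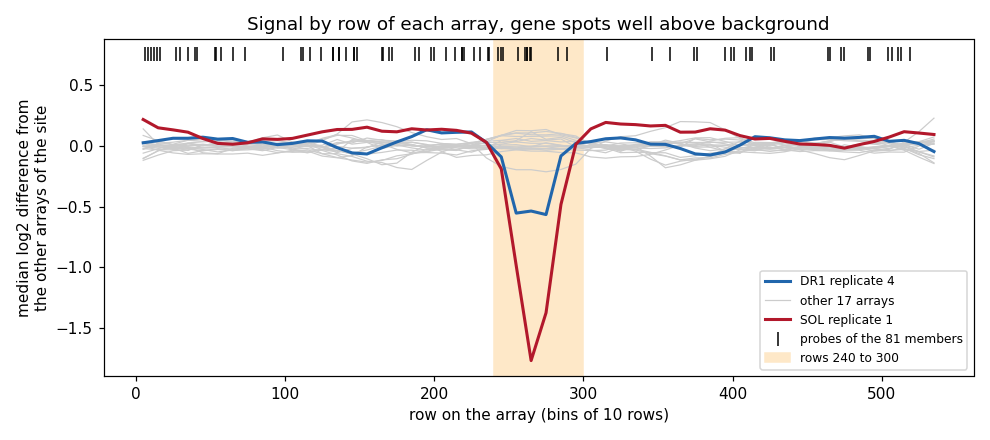
Median log2 difference of each array from the other arrays of its site, in bins of 10 array rows, over gene spots well above background on those other arrays; ticks at the top mark the rows of the members' probes. SOL replicate 1 falls to -1.76 and DR1 replicate 4 to -0.57 within rows 240 to 300. In those rows the other arrays stay between -0.215 (DR6 replicate 1) and 0.132 (PS replicate 4).

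The members differed less between sites than all genes tested, with which they were not matched for signal. The range of the 5 site means had a median of 0.39 (log2) over the members, against 0.68 over all genes tested, and reached 2-fold for 1 of 81 members (1.23%), against 4085 of 16346 genes (25.0%). By complex, the median range was 0.39 for complex I, 0.36 for complex II, 0.32 for complex III, 0.35 for complex IV and 0.45 for complex V. The members with the narrowest range were Atp5d (0.08), which encodes the delta subunit of ATP synthase, Ndufs8 (0.10), an iron-sulfur subunit of complex I, and Cox4i1 (0.11), the main form of complex IV subunit 4. For Ndufs8 the standard error of a difference was 0.22, larger than its range. At an adjusted p under 0.05 in a moderated F test over the 5 sites, 59 of 81 members (72.8%) differed, against 79.6% of all genes.

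Against SOL, 1 member in all passed the call rule of an adjusted p under 0.05 and a change of at least 2-fold. This was Cox8b, higher at DR1, where 6.08% of all genes were called (3.53% of all genes as higher). No member was called at PS, DR4 or DR6, where 4.42%, 10.5% and 6.95% of all genes were called. At 1.5-fold, 1 member passed at PS (11.3% of all genes did), 4 at DR1 (18.4%), 4 at DR4 (25.8%) and 2 at DR6 (18.3%). One of those at DR6 was Cox6a2, which with the low rows left out was at 0.56 (log2), under 1.5-fold. Without a fold limit, 12 members at PS passed the adjusted p (32.8% of all genes did), 29 at DR1 (47.7%), 42 at DR4 (55%) and 29 at DR6 (43.9%). The direction of those changes was not even: 4 higher and 8 lower at PS, 19 higher and 10 lower at DR1, 3 higher and 39 lower at DR4, and 6 higher and 23 lower at DR6. Among all genes, 16.4% were higher and 16.4% lower at PS, 24.5% and 23.2% at DR1, 23.9% and 31% at DR4, and 20.5% and 23.4% at DR6. Without SOL replicate 1, DR6 replicate 1 or DR6 replicate 2, 15 rather than 23 members were lower at DR6. Without DR1 replicate 3, 6 rather than 10 were lower at DR1, and without SOL replicate 3 or DR4 replicate 4, 1 rather than 3 was higher at DR4. With scaling to the array median the split was 6 higher and 5 lower at PS and 4 and 31 at DR6, and with quantile scaling it was 5 and 23 at DR4. The median changes of all genes were then 0.075, -0.091 and -0.023. Shares of all genes, here and below, were counted in the main fit alone, so counts under other settings have no such share beside them. All 4 comparisons share the SOL arrays.

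The median change of the 81 members was -0.07 at PS, 0.06 at DR1, -0.16 at DR4 and -0.09 at DR6, beside medians of -0.01, 0.01, -0.05 and 0.00 over all genes (log2). By array, the median level of the members was 5.654 to 5.868 at SOL, 5.661 to 5.721 at PS, 5.758 to 5.879 at DR1, 5.52 to 5.604 at DR4 and 5.594 to 5.668 at DR6. All 4 DR4 arrays lay below all 4 SOL arrays, and the other 3 sites overlapped SOL. The highest SOL value was that of replicate 1, the array with the low area, whose 75th percentile of signal (99.5) was the lowest of the 19. DR1 was the highest site for 42 of the 81 members and DR4 the lowest for 43. These medians moved with the scaling of the arrays: with quantile scaling the DR4 median was -0.07, and with scaling to the array median that of PS was 0.01.

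**Figure D2:**
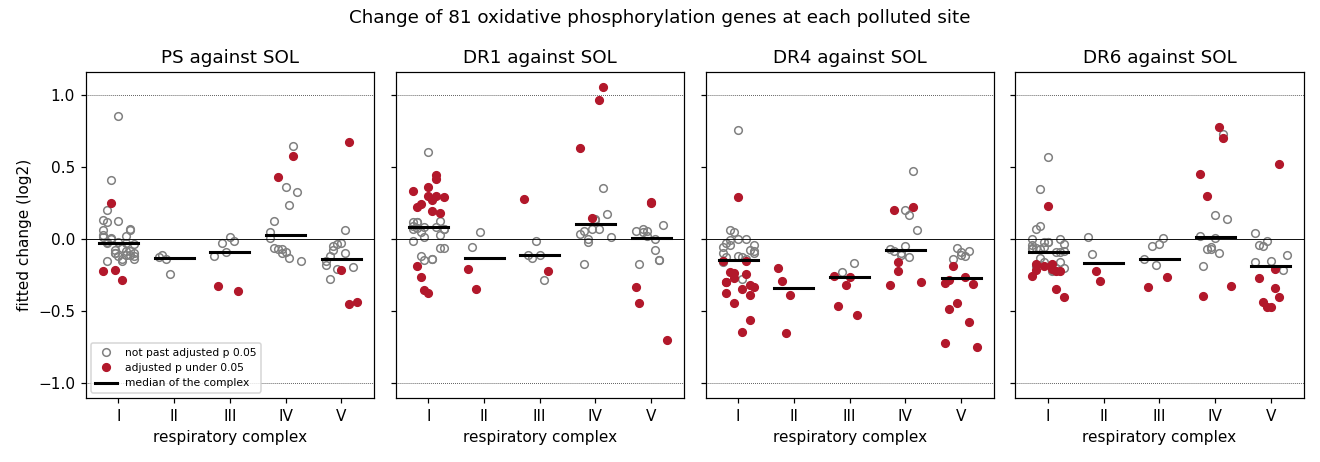
Fitted log2 change of each of the 81 members against SOL, by complex, at the 4 polluted sites, with all spots included; filled points passed an adjusted p of 0.05, bars are the medians of each complex and dotted lines mark 2-fold. At DR4 the points of complexes II, III and V all lie below 0, and at DR1 the only point past 2-fold is Cox8b, in complex IV, at 1.06.

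At DR4, the lower levels ran through complexes II, III and V. All 16 members of complex V, all 4 of complex II and all 7 of complex III were below SOL, 10, 4 and 5 of them past the adjusted p. Among all genes, 46.1% were above SOL at DR4 and, as given, 31% fell past the adjusted p. The median change was -0.27 for complex V, -0.34 for complex II and -0.27 for complex III. In complex I, 34 of 38 members were below SOL, 16 of them past the adjusted p, and 1 rose, with a median of -0.15. Complex IV had a median of -0.08, with 4 of 16 members lower and 2 higher past the adjusted p, a smaller share lower than among all genes. Under quantile scaling the complex V median at DR4 was -0.08, and with normexp background correction as well it was -0.04. Counts of members lower at DR4 were then 23 and 16 rather than 39. The medians over all genes were -0.023 and -0.013, and the shares of all genes lower were not counted under these scalings.

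In complex V, the members that fell most at DR4 were Atp5g3 and Atp5g1, which with Atp5g2 encode the same subunit c of the membrane ring, and Atp5a1, which encodes the alpha subunit of the catalytic head. The 3 subunit c genes differ in their transcripts, and the probes used to tell them apart are shown by a 30-base stretch each, as the files give it 5′ to 3′, with capitals for the longest run that all 3 probes hold, which is 4 bases. They lie at chr11:95889700-95889759, chr15:102491047-102491106 and chr2:73709301-73709360 of the mouse build mm8, all on the minus strand.
Atp5g1: cagaccagtgtcaTTTCccgggacatcgac
Atp5g2: cctaatggtggccTTTCtcatcctcttcgc
Atp5g3: gaaatatatgttaTTTCcacagtcatttca

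Atp5g3 had levels of 8.58, 8.53, 8.30 and 8.42 on the SOL arrays, and of 7.77, 7.67, 7.62 and 7.76 on the DR4 arrays. Its levels were 7.94, 8.02, 8.01 and 8.12 at PS, 7.84, 7.94, 7.49 and 7.76 at DR1, and 8.29, 8.44 and 8.32 at DR6. The arrays of PS, DR1 and DR4 all lay below those of SOL, and DR6 overlapped SOL. The changes were -0.75 ± 0.09 (SE) at DR4 (adjusted p = 1.29e-06), -0.70 ± 0.09 at DR1 (adjusted p = 4.94e-06), -0.43 ± 0.09 at PS and -0.11 ± 0.09 at DR6, the last not past the threshold. With quantile scaling the DR4 change of Atp5g3 was -0.39.

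Atp5g1 had levels of 5.68, 5.58, 5.32 and 5.49 at SOL and of 5.02, 4.95, 4.87 and 4.93 at DR4. At PS the levels were 5.08, 5.09, 5.00 and 5.10, at DR6 5.10, 5.19 and 5.07, and at DR1 5.32, 5.64, 5.20 and 5.32. PS, DR4 and DR6 did not overlap SOL, and DR1 did. Atp5g1 fell by 0.58 at DR4, by 0.45 at PS and by 0.40 at DR6 (SE 0.09 each, adjusted p = 2.59e-05, 0.000669 and 0.0024), and its change at DR1 was -0.15 (adjusted p = 0.175). The third gene of the trio, Atp5g2, fell by 0.31 at DR4 (adjusted p = 0.00834) and did not pass the threshold at the other 3 sites. A second Atp5g2 probe changed by -0.07 at DR4.

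Atp5a1 had levels of 8.52, 8.27 and 8.21 on the 3 SOL arrays where its spot was not an outlier, and of 7.57, 7.62 and 7.65 on 3 DR4 arrays. The change at DR4 was -0.72 ± 0.08 (adjusted p = 1.76e-06), and -0.33 ± 0.07 at DR1, with 0.04 at DR6. With quantile scaling the DR4 value was -0.33. A second probe of Atp5a1, well above background on 19 arrays, changed by -0.26 at DR4, by -0.35 at DR1 and by -0.14 at DR6, so the size of the fall at DR4 depended on the probe. Atp5b, which encodes the catalytic beta subunit, was measured with a chosen probe that was saturated on 13 of 19 arrays and gave -0.48 ± 0.13 at DR4 (adjusted p = 0.00412). That probe lies in the low rows, and with them left out Atp5b changed by -0.34 at DR4 and by -0.39 at DR1. Its other 2 probes were saturated on none and changed by -0.75 and -0.60 at DR4 and by -0.62 and -0.61 at DR1. Atp5k, the e subunit of the membrane part, fell at DR4 and DR6 (-0.45 ± 0.08 and -0.48 ± 0.09), and Atp5e, the epsilon subunit of the head, fell at DR6 (-0.47 ± 0.07) and rose at DR1 (0.26 ± 0.07). Atp5j2 was also lower at DR6, by -0.44 ± 0.07, on 1 DR6 array, the other 2 being outlier spots.

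Atp5s, the coupling factor, did not follow the other members of complex V at PS and DR6. Its levels were 1.74, 1.55, 1.58 and 1.49 at SOL, 2.30, 2.30, 2.25 and 2.21 at PS, and 2.21, 2.07 and 2.06 at DR6, with no overlap. At DR1 (1.22 to 1.60) and DR4 (1.49 to 1.54) they overlapped SOL. Atp5s rose by 0.67 ± 0.08 at PS (adjusted p = 3.84e-06) and by 0.52 ± 0.08 at DR6 (adjusted p = 8.62e-05). A second probe of the gene differed from the chosen one by at most 0.31 in any of the 4 changes.

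In complex II, Sdhc encodes one of the 2 membrane anchors. Its levels were 4.23, 4.50, 4.26 and 4.27 at SOL, and 3.75, 3.65, 3.69 and 3.54 at DR4. Sdhc was 4.05, 4.18, 4.25 and 4.22 at PS, 4.00, 4.01, 3.91 and 3.97 at DR1, and 4.12, 4.09 and 4.06 at DR6, so that DR1, DR4 and DR6 lay below SOL without overlap. The changes were -0.66 ± 0.07 at DR4 (adjusted p = 2.54e-07), -0.34 ± 0.07 at DR1 and -0.22 ± 0.07 at DR6. The other anchor, Sdhd, fell by 0.39 at DR4 and by 0.29 at DR6. Sdhb, the iron-sulfur subunit, fell by 0.29 at DR4. The flavoprotein Sdha fell by 0.20 at DR4, with its probe inside the low rows. With those rows left out it fell by 0.29 at DR4 (adjusted p = 0.00168), by 0.30 at DR1 and by 0.22 at PS. A second Sdha probe changed by -0.51 at DR4, by 0.08 at DR1 and by -0.20 at PS.

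In complex III, Uqcrq, which encodes a small subunit next to cytochrome b, was lower than SOL at each polluted site. The SOL levels were 8.18, 7.95, 7.85 and 7.93, and the levels at DR4 were 7.47, 7.48, 7.39 and 7.43. Uqcrq was 7.59 to 7.63 at PS, 7.53 to 7.88 at DR1 and 7.69 to 7.74 at DR6. It fell by 0.53 ± 0.08 at DR4 (adjusted p = 1.37e-05), by 0.36 at PS, by 0.22 at DR1 and by 0.26 at DR6, and the DR1 arrays overlapped SOL. Uqcrb, another small subunit, fell by 0.47 ± 0.06 at DR4 (adjusted p = 1.76e-05), by 0.33 at PS and by 0.34 at DR6. The 2 core proteins were lower by less: Uqcrc2 fell by 0.32 at DR4, and Uqcrc1 changed by -0.23 there (adjusted p = 0.117). A second Uqcrc1 probe, across an intron, changed by -0.36 at DR4 and by -0.49 at DR1, where the chosen one changed by -0.13. The Rieske iron-sulfur protein, Uqcrfs1, fell by 0.27 at DR4. Cyc1, the cytochrome c1 of the same complex, falls outside the naming rule and fell by 1.03 ± 0.08 at DR4 and by 0.67 at DR1 (adjusted p = 1.19e-08 and 4.03e-06).

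In complex I, Ndufb7, an accessory subunit of the membrane arm, fell by 0.64 ± 0.10 at DR4 (adjusted p = 3.43e-05). Its levels were 6.42, 6.18, 5.87 and 5.96 at SOL and 5.55, 5.45, 5.40 and 5.46 at DR4. Ndufs7, an iron-sulfur subunit on the path of electrons to ubiquinone, fell by 0.56 ± 0.08 at DR4, with levels of 5.07 to 5.25 at SOL and 4.44 to 4.65 at DR4. Ndufs5, an accessory subunit, fell by 0.35 at DR4 and by 0.28 at PS and rose by 0.20 at DR1. Ndufc1 fell by 0.33 at DR4 and by 0.40 at DR6, the latter not past the threshold without DR6 replicate 2 (adjusted p = 0.0571 in limma). Ndufs7, Ndufa11, Ndufb8, Sdhd, Uqcrc1, Uqcrc2 and Uqcrfs1 were picked for mention after their values were seen.

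At DR1, complexes I and IV lay mostly above SOL. In complex I, 27 of 38 members were above, 12 of them past the adjusted p, against 4 lower past it, with a median of 0.08. In complex IV, 14 of 16 were above, with a median of 0.10, but Cox6a1 and Cox6b1 were so only with the low rows included. The 4 of 16 past the adjusted p are near the share among all genes at DR1 (24.5% higher). Ndufa2, an accessory subunit, had levels of 6.33, 6.47, 6.22 and 6.44 at DR1 against 6.05, 6.08, 5.85 and 5.69 at SOL, with no overlap. It rose by 0.45 ± 0.09 (adjusted p = 0.000441), and its changes at the other sites did not pass the threshold. Ndufb8 (0.41 ± 0.06) and Ndufs4 (0.36 ± 0.06) also rose at DR1. Ndufs4, a subunit of the peripheral arm needed for assembly of the complex, rose at DR4 (0.29 ± 0.06) and DR6 (0.23 ± 0.06) as well, and was the 1 member of complex I to do so at DR4. Ndufb6 and Ndufb5 went the other way at DR1. Ndufb6 had levels of 4.70, 4.59, 4.75 and 4.70 there against 4.99 to 5.09 at SOL, a change of -0.37 ± 0.07 (adjusted p = 0.000276), and Ndufb5 fell by 0.36 ± 0.06 (by 0.37 with the low rows left out).

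Among the 5 members in which the low rows mattered most, Ndufa12l had fitted changes of 0.57 to 0.86 at the 4 sites, none past the threshold. With the rows left out they were 0.17 at PS, 0.17 at DR1, 0.07 at DR4 and -0.12 at DR6. Ndufa11 then fell by 0.43 ± 0.09 at DR1 (adjusted p = 0.000642) and by 0.52 ± 0.08 at DR4 (adjusted p = 4.87e-05), against fitted values of -0.12 and -0.01 with all spots. A second Ndufa11 probe changed by -0.34 and -0.49 with all spots. Cox6b1 went from 0.47 to -0.24 at DR4 (adjusted p = 0.0218), and Cox6a1 from 0.20 to -0.25 (adjusted p = 0.0253). With the rows left out, 43 members were lower and 3 higher past the adjusted p at DR4, and the median change there was -0.17.

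Complex IV carries subunits with tissue isoforms. Cox6a2, Cox7a1 and Cox8b encode the forms of heart and skeletal muscle, and Cox6a1, Cox7a2 and Cox8a those of liver and most other tissues. Stretches of 30 bases of the 6 probes are shown pairwise to let the isoforms be compared, with capitals for the longest run that both probes of a pair hold. These runs are 4, 6 and 5 bases long, and no pair among the 81 chosen probes shares a run longer than 11 bases. In mm8 the probes lie at chr7:127996794-127996853 (Cox6a2), chr5:115606716-115606775 (Cox6a1), chr7:29894078-29894689 (Cox7a1, across an intron), chr9:79541104-79541163 (Cox7a2), chr7:140750273-140750332 (Cox8b) and chr19:7282281-7282340 (Cox8a). Cox7a1 is on the plus strand and the other 5 are on the minus strand.
Cox6a2: agcaatcttcaaaTTGGccttctgcacacc
Cox6a1: ccacgaaaaccctTTGGatgctaagctcgt
Cox7a1: tgactctggggggcactgcctACTGCTtat
Cox7a2: attgatgtgtattaACTGCTgccaataaag
Cox8b: aagagctccgcagCATGAagttgcacatcc
Cox8a: cctcttctgcaatCATGAcctctcgatgtc

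Cox8b had levels of 0.01, 0.06, 0.03 and 0.27 at SOL, and of 1.18, 1.11, 1.31 and 1.01 at DR1. The levels were 0.90, 0.71 and 0.78 at DR6, 0.83, 0.74, 0.55 and 0.57 at PS, and 0.24, 0.28, 0.40 and 0.34 at DR4. DR1, DR6 and PS lay above SOL without overlap, and DR4 overlapped it. Cox8b rose 2.08-fold at DR1 (1.06 ± 0.08 on the log2 scale, adjusted p = 2.6e-08), by 0.70 ± 0.09 at DR6, by 0.58 ± 0.08 at PS and by 0.22 ± 0.08 at DR4. The DR4 value did not pass the threshold without any 1 of 5 arrays (SOL replicates 1, 2 and 3, DR4 replicates 3 and 4), with values of 0.19 to 0.21. With normexp background correction the DR1 value was 0.92, under 2-fold.

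Cox7a1 had levels of 2.03, 1.92, 1.91 and 1.95 at SOL, 2.64, 2.43, 2.61 and 2.66 at DR1, and 2.34, 2.44 and 2.42 at DR6. At DR4 they were 1.63, 1.64, 1.54 and 1.71, and at PS 2.02, 2.01, 2.01 and 1.95. DR1 and DR6 were above SOL, DR4 was below it, and PS overlapped it. The changes were 0.63 ± 0.06 at DR1 (adjusted p = 1.52e-07), 0.45 ± 0.06 at DR6 (adjusted p = 1.99e-05) and -0.32 ± 0.06 at DR4 (adjusted p = 0.000137).

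Cox6a2 had levels of 2.07, 1.89, 2.16 and 2.16 at DR1 and of 1.73, 1.88 and 2.02 at DR6. On the 3 SOL arrays outside the low area it was 1.25, 1.31 and 1.40, beside 1.31 to 1.37 at PS and 1.19 to 1.33 at DR4, both of which overlapped it. DR1 and DR6 lay above all 3 without overlap. With the low rows left out, Cox6a2 rose by 0.72 ± 0.08 at DR1 (adjusted p = 4.14e-06) and by 0.56 ± 0.08 at DR6 (adjusted p = 5.52e-05), against 0.97 and 0.78 with all spots.

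For the forms made in liver and most tissues, the chosen probes did not pass the threshold upwards at DR1 or DR6. Cox7a2 changed by 0.06 ± 0.09 at DR1 and fell by 0.39 ± 0.09 at DR6 (adjusted p = 0.00352). A second Cox7a2 probe, which overlaps the chosen one, changed by 0.32 at DR1 and by -0.26 at DR6, so the contrast of the isoforms at DR1 is not settled for this pair. Cox8a changed by 0.07 ± 0.10 at DR1 and by -0.10 ± 0.16 at DR6, where 1 array was usable. With the low rows left out, Cox6a1 changed by -0.15 ± 0.10 at DR1 and fell by 0.29 ± 0.10 at DR6 (adjusted p = 0.0215).

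**Figure D3:**
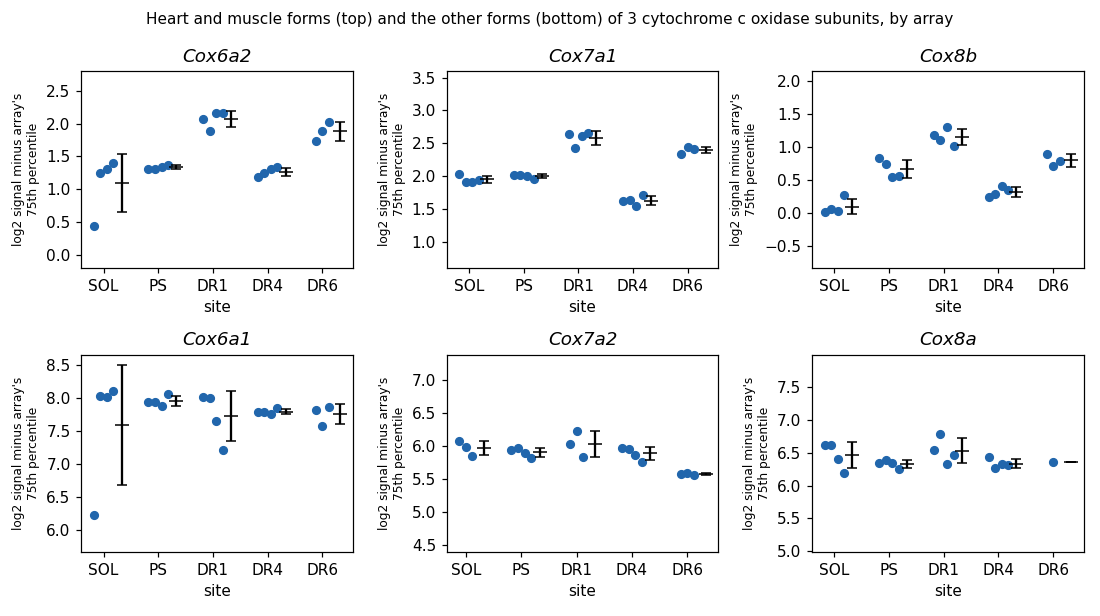
Level of each isoform on every array, by site, with the mean and SD beside the points; panels have the same height on the log2 scale, and the height of one panel is not to be set against another. Cox6a2, Cox7a1 and Cox8b are higher at DR1 and DR6 than at SOL, while the DR1 arrays of Cox7a2 and Cox8a overlap those of SOL; the low SOL points of Cox6a2 (0.45) and Cox6a1 (6.23) are from the array with the low area.

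Markers of skeletal and heart muscle were mostly higher at DR1 and DR6, where these 3 isoforms were higher too. All 15 listed markers were measured, each with a probe well above background on all 19 arrays, and none was absent at any site. Their mean level per array was 1.47 to 1.55 at SOL, 1.76 to 1.82 at PS, 2.10 to 2.23 at DR1, 1.44 to 1.47 at DR4 and 2.18 to 2.22 at DR6. At DR1, 12 of 15 were above SOL (10 higher and 1 lower past the adjusted p), with a median of 0.67. At DR6, 14 of 15 were above (14 past the adjusted p), with a median of 0.68. At PS, 13 of 15 were above SOL (7 higher and 1 lower past the adjusted p), with a median of 0.25 and a range from -1.08 to 1.81. Cox8b changed there by 0.58, Cox7a1 by 0.05 and Cox6a2, with the low rows left out, by 0.01. At DR4 the marker median was -0.11, beside 0.22 for Cox8b and -0.32 for Cox7a1, and the 15 markers there ran from -0.84 to 1.38. Higher past the adjusted p among all genes were 24.5% at DR1, 20.5% at DR6 and 16.4% at PS. Mb, the oxygen-binding myoglobin of muscle, rose by 1.22 at DR1 and by 0.89 at DR6, and Myl1, a fast myosin light chain, by 1.23 and 0.71. Myh4, a fast myosin heavy chain, rose by 2.85 at DR1 and 0.29 at DR6, while creatine kinase Ckm fell by 0.47 at DR1. The 3 measured brown fat markers differed among themselves, Ucp1, Cidea and Ppargc1a changing by -0.51, 0.06 and 0.47 at DR1 and by -0.26, 0.51 and 1.41 at DR6. The part of muscle RNA in the isoform values was not tested.

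**Figure D4:**
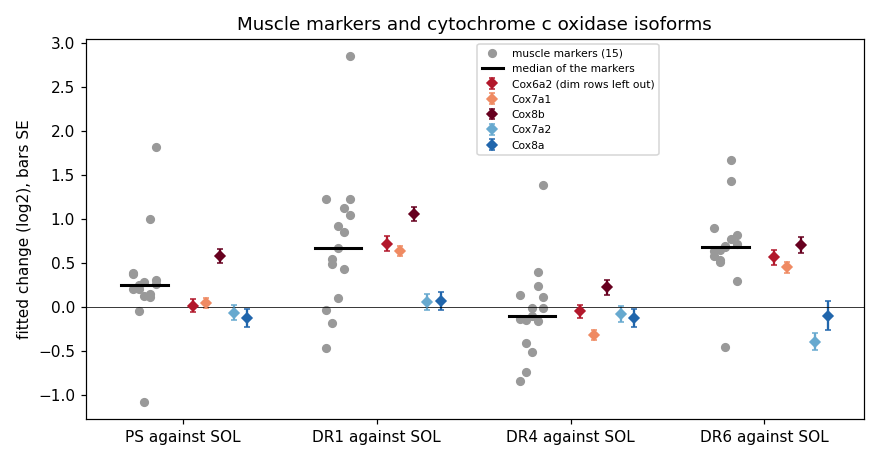
Fitted log2 changes against SOL of 15 muscle markers (grey, median as a bar) and of 5 complex IV isoform genes (diamonds with SE); Cox6a2 is shown with the low array rows left out. At DR1 and DR6 the marker medians are 0.67 and 0.68 and Cox8b is at 1.06 and 0.70, while Cox7a2 and Cox8a are at or below 0.07.

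Of the other isoform members, Cox7a2l, a relative of Cox7a2 that joins complexes III and IV into supercomplexes, had levels of 3.30, 3.37, 3.28 and 3.17 at SOL, 3.69, 3.71, 3.68 and 3.74 at PS, and 3.58, 3.58 and 3.59 at DR6. It rose by 0.43 ± 0.05 at PS (adjusted p = 1.16e-05) and by 0.30 ± 0.06 at DR6 (adjusted p = 0.000542), fell by 0.22 ± 0.05 at DR4, and changed by 0.00 ± 0.05 at DR1. PS and DR6 did not overlap SOL. Cox6b2, known from testis, had changes between 0.06 and 0.33 that did not pass the threshold at any site. Cox7b changed by 0.14 at DR1, which did not pass the threshold without any 1 of 5 arrays (SOL replicates 2, 3 and 4, DR1 replicates 1 and 3), with values of 0.12 to 0.14, and Cox4i1 stayed within 0.07 of SOL at each site. Ndufa4, now counted with complex IV although named for complex I, rose by 0.29 ± 0.08 at DR1 (0.20 with the low rows left out).

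Arrays of the 2 sites compared did not overlap for 19 members at PS (36.9% of all genes), 20 at DR1 (35.9%), 39 at DR4 (52.5%) and 31 at DR6 (46.7%).

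With the main scaling, the widest contrast along the stream was between its lower and medium course, and the sizes moved with the scaling. DR1 against DR4 gave 51 members higher and 3 lower past the adjusted p (26.9% and 17.9% of all genes), with a median of 0.25 against 0.04 over all genes. None was called at 2-fold (5.15% of genes were), and 4 were at 1.5-fold (16.3% of genes): Cox7a1 (0.96), Cox8b (0.83), Cox6a2 (0.80, with all spots) and Ndufs7 (0.59). All but 1 of the 16 complex V members were higher at DR1 than at DR4, 10 past the adjusted p. With quantile scaling the median was 0.13 (0.006 over all genes), with 32 members higher and 4 lower. DR1 against DR6 gave 34 higher and 8 lower (27% and 23.8% of all genes), with a median of 0.13, and no 2-fold call (7.5% of genes). Atp5e (0.73) and Ndufa2 (0.65) were higher past 1.5-fold, and Atp5s (-0.67) and Atp5g3 (-0.59) lower (22.1% of genes passed in either direction). With scaling to the array median the split was 40 higher and 3 lower (median over all genes 0.093), and without DR6 replicate 2 or 3, 5 were lower. DR4 against DR6 gave 5 higher and 17 lower (20% and 24.4% of genes) and a median of -0.09, with no 2-fold call (6.16% of genes). The 5 lower past 1.5-fold (18% of genes in either direction) were Cox7a1 (-0.77), Atp5a1 (-0.76), Atp5g3 (-0.64), Cox6a2 (-0.61) and Atp5s (-0.60). With quantile scaling that median turned to 0.05 (0.011 over all genes), with 15 higher and 11 lower, so its direction was not settled.

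**Figure D5:**
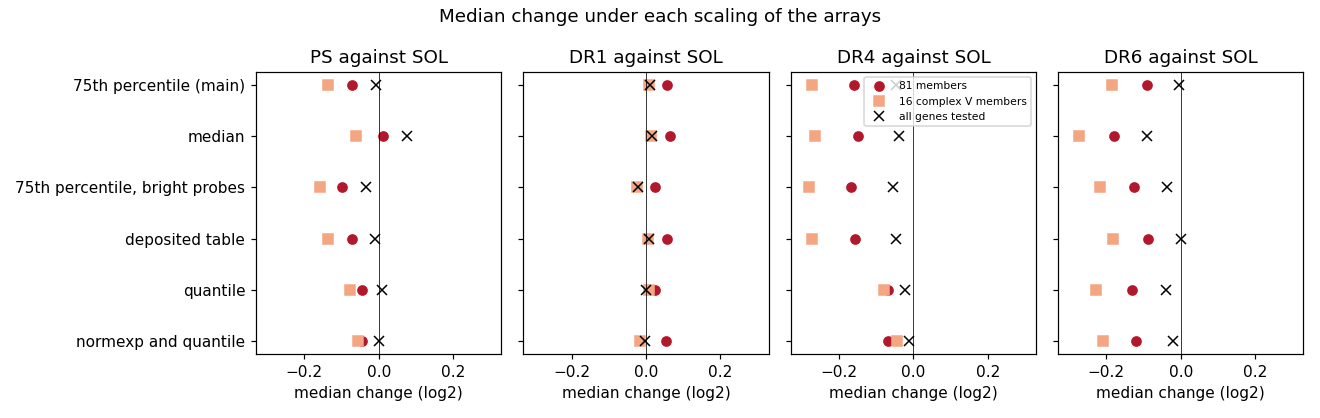
Median log2 change against SOL of the 81 members, the 16 complex V members and all genes tested, under 6 ways of scaling the arrays. At DR4 the members' median is -0.16 with the main scaling and -0.07 with quantile scaling; at PS it is -0.07 and, with median scaling, 0.01.

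With the 5 pools as the units, which leaves 1 unpolluted pool, no member differed between the polluted pools and SOL past the adjusted p in limma (0 of 16346 genes did). At an unadjusted p under 0.05 there was 1 member (1.23%, against 4.07% of genes). This was Ndufa12l, whose SOL mean holds the low spot. All 4 polluted pools were below SOL for 19 members (23.5%) and above it for 8 (9.88%), against 19.5% and 18.7% of all genes. These counts hold all spots. The 8 include Cox6a1, Cox6a2, Cox6b1 and Ndufa12l, and with the low rows left out none of these was above SOL at all 4 sites. Cox6a1, Ndufa11, Ndufb4 and Sdha were then below SOL at all 4, and Atp5b, among the 19, no longer was (0.10 at DR6).

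Genes of the same pathway were described from fixed lists, whose counts at DR4 stand beside 31% of all genes lower and 23.9% higher. At DR4, 10 of 14 electron carriers and linked dehydrogenases fell past the adjusted p and none rose, with a median of -0.40. Among citric acid cycle enzymes, 10 of 16 fell and 2 rose, with a median of -0.36. Idh2, the mitochondrial NADP-dependent isocitrate dehydrogenase, fell by 1.64 at DR4, by 0.97 at DR6, by 0.79 at DR1 and by 0.66 at PS, and Suclg2, of succinyl-CoA synthetase, fell by 1.05 at DR4. Fh1, fumarase, rose by 0.70 at DR4 and 0.66 at DR6. Of 20 assembly factors, 9 fell and 2 rose at DR4. Cox15, which makes heme a for complex IV, fell by 0.92 at DR4 and by 0.84 at DR1. Among carriers and uncouplers 5 of 7 fell at DR4, and of 15 outer membrane and import genes, taken as marks of mitochondrial mass, 4 fell and 1 rose, a share of falls below that of all genes. Mitochondrial ribosomal proteins had medians of -0.15 at both DR4 (30 of 75 lower, 7 higher) and DR6 (31 lower, 6 higher). Of all genes, 23.4% were lower and 20.5% higher at DR6. Cytosolic ribosomal proteins had a median of 0.05 at DR4 (10 of 78 lower, 15 higher).

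Among regulators of mitochondrial genes more rose than fell at DR4 and DR6. At DR4, 8 of 16 rose and 2 fell, and at DR6, 6 rose and 1 fell (20.5% and 23.4% of all genes at DR6). Ppargc1a, the coactivator PGC-1 alpha, rose by 1.32 at DR4 (adjusted p = 4.58e-07) and by 1.41 at DR6 (adjusted p = 1.17e-06). Gabpb1, a subunit of nuclear respiratory factor GABP, rose by 0.69 and 1.05, and Esrra, the receptor ERR alpha, by 0.60 and 0.62. Polg2, the accessory subunit of mitochondrial DNA polymerase, rose by 0.68 at PS and 0.52 at DR1.

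Markers of other cell types also differed between DR4 and SOL. All 5 measured erythroid markers fell at DR4 (median -1.52), with a mean level of 1.71 to 2.01 against 3.36 to 3.47 at SOL. The 6 macrophage markers were all below SOL, 5 past the adjusted p, with a mean level of 1.36 to 1.5 against 2.05 to 2.60. The 9 measured exocrine pancreas markers all fell (median -3.29), with a mean level of 2.76 to 3.07 against 6.28 to 6.37. The part of these differences in the members' values was not tested. At DR6, where 23 members were lower, all 5 erythroid markers (median -1.20) and 4 of 6 macrophage markers (median -0.49) fell, and the pancreas markers had a median of 0.20. At PS, where 8 members were lower, the medians were 0.25, -0.03 and -2.14, and at DR1, where 10 were lower, -0.77, -0.32 and -0.88.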

How the data were processed

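Pooled liver RNA from 5 sites was measured on 19 1-colour Agilent arrays of 45018 spots, 41174 gene probes. The deposited scanner files hold linear intensity per spot, background-subtracted by the authors; the submitters' processing notes name Feature Extraction, version 9.5.3.1; the flags used (well above background, saturated, outlier, control; type other, 0 or 1) and raw mean and background intensity are in the same files. A second deposited table, covering all arrays, gives the same intensity to within 0.498%. Here log2 of the deposited intensity was scaled to each array's 75th percentile, outlier spots were set missing, spots of a probe were averaged, and probes well above background on 3 arrays of a site were kept (23458 probes, 16346 genes). Site means were fitted across all genes with limma 3.58.1 (R 4.3.3), with Benjamini-Hochberg adjustment, after a check on simulated arrays with 200 changed genes. Array signal at the 75th percentile was 99.5 to 285. The number of arrays limits the precision. The probes of DR1 were annotated on an older build, so names and mm8 positions come from the other sites' files.

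Members and lists were chosen with earlier results of these data known. Named members were those called, the 5 highest and 5 lowest changes per site, the brightest and dimmest probe of each complex, the 3 narrowest ranges and tissue isoforms, 37 in all. Pathway and marker genes were up to 3 a list with the largest change, and others named were picked after their values were seen. Alternatives covered scaling, filter, probe choice, call limit, replicate block and each array left out. Cell type lists whose changes at DR4 are not described above had medians there of -0.07 (hepatocytes), 0.24 (cholangiocytes), 0.10 (B and plasma cells), 0.10 (T and NK cells), -0.18 (stellate cells), -0.44 (endothelium) and -0.44 (brown fat). Of 10 hepatocyte markers, 5 rose and 5 fell past the adjusted p, from -0.82 to 0.81. In the order above, the other lists had 3, 1, 0, 3, 1 and 1 higher, and 1, 0, 1, 4, 4 and 2 lower, of 5, 5, 7, 7, 6 and 3 markers. Of all genes, 23.9% rose and 31% fell.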

Additional observations from a re-analysis of the deposited data

Results flagged for a closer look

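Among 137 groups of 4 arrays tested over the named members, 15 held an array far from the other 3, its gap to the nearest, as a share of the group's range, being above the critical value of Dixon's test. The shares are given in parentheses. Chance flags about 1 group in 20.

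Those in the low rows of SOL replicate 1 and DR1 replicate 4 were Cox6a1 (0.951), Cox6a2 (0.850), Cox6b1 (0.965) and Ndufa12l (0.955) on SOL replicate 1, and Cox6b1 on DR1 replicate 4 (0.925). Each was low on that array.

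The others were on other arrays. Low arrays were Atp5g1 on PS replicate 3 (0.859), Uqcrq on PS replicate 3 (0.892), Cox7a1 on PS replicate 4 (0.859) and Ndufb6 on SOL replicate 4 (0.886). On DR1 replicate 2, Cox4i1 was 6.64 against 6.89 to 6.94 on the others (0.832), and Ndufc1 was 4.35 against 4.91 to 4.99 (0.879). High arrays were Sdhc on SOL replicate 2 (0.871), Cox6b2 on DR4 replicate 4 (0.920), and Ndufa12l (0.891) and Ndufa4 (0.916) on PS replicate 4. The probes of Ndufa12l and Ndufa4 lie in rows 262 and 265. In that bin of rows the median difference of PS replicate 4 from the other PS arrays was 0.122.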

How the results depend on the processing

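For the named members, 786 changes recomputed under other settings kept their direction and side of the 2-fold limit, 33 turned and 1 fell below the limit. Cox8b at DR1 was the only change past 2-fold in the main fit, so for the others keeping the side says little. Changes that shrank without turning were counted as kept. The causes were not tested unless the setting itself gives them. With a limit of 1.5-fold, the members higher and lower were 1 and 0 at PS, 3 and 1 at DR1, 0 and 4 at DR4, 2 and 0 at DR6, 2 and 2 for DR1 against DR6, 0 and 5 for DR4 against DR6, and 4 and 0 for DR1 against DR4. By adjusted p alone they were 4 and 8, 19 and 10, 3 and 39, 6 and 23, 34 and 8, 5 and 17, and 51 and 3. With normexp, no member was called higher at DR1, Cox8b being at 0.918.

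Median scaling gave medians of 0.011 at PS, -0.179 at DR6, 0.227 for DR1 against DR6 and 0.005 for DR4 against DR6. Quantile scaling gave -0.069 at DR4, 0.046 for DR4 against DR6 and 0.133 for DR1 against DR4, and with normexp -0.069, 0.041 and 0.138.

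Some changes turned sign, all of them without a pass of the adjusted p in the main setting except Atp5b at DR1 (-0.445, adjusted p = 0.0136 in limma, and 0.0783 without DR1 replicate 3). With median scaling these were Cox7a2 at PS (0.036) and Cox4i1 at DR6 (-0.070). With the percentile over bright probes they were Cox4i1 at PS (-0.022) and DR6 (-0.015) and Cox7a2l at DR1 (-0.030). With quantile scaling they were Atp5b (0.005) and Cox7a2l (-0.034) at DR1, Cox4i1 (0.111), Cox8a (0.028) and Ndufa4 (0.096) at DR4, and Cox4i1 at DR6 (-0.014). With normexp they were Cox4i1 (-0.021) and Cox8a (0.001) at PS, Atp5g2 at DR1 (-0.144), Cox4i1 (0.109), Cox6b2 (-0.009), Cox7b (0.022), Cox8a (0.188) and Ndufa4 (0.106) at DR4, and Cox6b2 (-0.006) and Ndufa4 (0) at DR6. With the mean of all probes Cox7a2 was 0.012 at PS and 0.083 at DR4.

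Leaving out rows 240 to 300 of the 2 arrays, chosen after seeing the data, turned Cox6a1 (-0.094 at PS, -0.153 at DR1, -0.254 at DR4, -0.294 at DR6), Cox6b1 (-0.062 at PS, -0.113 at DR1, -0.239 at DR4), Cox6a2 at DR4 (-0.050) and Ndufa12l at DR6 (-0.115).

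Over the arrays left out in turn, the members called higher ranged from 1 to 2 at DR1, Cox6a2 being the second, and from 0 to 1 for DR1 against DR4, the 1 without DR1 replicate 2. The changes that turned ranged as follows. Cox6a1 ran from -0.094 to 0.532 at PS, -0.325 to 0.303 at DR1, -0.254 to 0.372 at DR4 and -0.294 to 0.332 at DR6. Cox6b1 ran from -0.062 to 0.898 at PS, -0.355 to 0.605 at DR1 and -0.239 to 0.721 at DR4, Ndufa12l from -0.082 to 0.859 at DR1 and -0.115 to 0.824 at DR6, and Cox6a2 from -0.050 to 0.267 at DR4, all with the low end from SOL replicate 1 left out. Cox4i1 ran from -0.020 to 0.033 at PS and -0.015 to 0.046 at DR6, Cox6b2 from -0.070 to 0.206 at DR4, Cox7a2 from -0.041 to 0.157, Cox7a2l from -0.040 to 0.032 and Cox8a from -0.017 to 0.138 at DR1, and Ndufa4 from -0.070 to 0.008 at DR6.

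The labels do not say what a replicate number shares between sites. Deviations correlated above 0.1 for 16 of 36 same-numbered pairs (median 0.0881) and for 15 of 108 others (median -0.0342). At each of the 5 sites the median member level fell in the order of the numbers, as from 5.868 to 5.654 at SOL. The numbers may thus share an effect, which the main fit leaves in, and DR6 has no array numbered 4. What the numbers share was not tested. With the replicate block, which changed no 2-fold call, 43 members were lower at DR4 and 29 at DR6, and Cox7a2 at DR1 was -0.021. The arrays repeat 1 pool per site, so no setting bears on the spread between mice.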

Other observations

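Subunits encoded by mitochondrial DNA fall outside the naming rule, and 3 of them, COX2, CYTB and ND4L, were measured. COX2, of complex IV, fell by 0.61 ± 0.21 at DR4 (adjusted p = 0.0203) and by 0.52 at DR1 (adjusted p = 0.0485), with a probe saturated on 4 of 19 arrays. Both rest on SOL replicate 1 (9.53 against 8.44 to 8.80 on the other SOL arrays): without it the changes were -0.37 (adjusted p = 0.0713 in limma) and -0.29 (0.175). With each of 19 arrays left out in turn, the DR1 value missed the threshold in 16 fits and the DR4 value in 2 (the other without DR4 replicate 3, 0.054). CYTB, of complex III, changed by -0.37 ± 0.23 at DR4 (adjusted p = 0.187), and ND4L, of complex I, by -0.24 ± 0.12 (adjusted p = 0.0914).

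Probes of 1 member did not always move together. Atp5f1, the b subunit of ATP synthase, had 3 probes. At DR4 the chosen one, at chr3:106071009-106071068 in mm8, changed by -0.12, a second, across an intron, by -0.64, and the third, at chr3:106086784-106086843, by 1.88. Ndufa3 had a second probe, well above background on 13 of 19 arrays, that changed by -1.79 at DR6, where the chosen probe changed by -0.16. Other, dimmer probes of Uqcrq (0.60 at DR1), Atp5j2 (-0.92 at DR6) and Ndufc1 (-1.04 at DR1) also differed from the chosen ones (-0.22, -0.44 and 0.07).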
